A study of Mus musculus with 2 samples.

Results

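The cells described here are basal keratinocytes of embryonic mouse skin that held no transcript of Dkk4, a secreted Wnt antagonist gene and early marker of the hair placode. They numbered 1293 of the 20903 barcodes that passed the filters on genes and mitochondrial UMIs, and of 25475 barcodes in all. A barcode was taken if it had at least 1000 detected genes, at most 10% mitochondrial UMIs and under 5% hemoglobin UMIs. It also needed at least 20 UMIs of the basal keratins Krt5, Krt14 and Krt15 together, fewer than 5 of the suprabasal keratins Krt1 and Krt10, and fewer than 20 of the collagens Col1a1, Col1a2 and Col3a1. UMIs of Dkk4, Myod1, Cdh5, Ptprc and Sox10 all had to be 0. The members were thus chosen by measured UMIs, and the levels of these genes are given as a description only. This left 976 cells of the mutant library and 317 of the control library, 11.1% and 2.62% of their kept barcodes. What the sort and the dissociation did to these shares was not tested. Krt5 stood at 847 CPM in mutant and 599 CPM in control cells, Krt14 at 1541 and 1450 CPM and Krt15 at 925 and 610 CPM, where CPM is the summed UMIs of a gene over a group of cells, scaled to a total of 1000000.

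The mutant library came from skin titled dermal SmoM2YFP mutant at stage E13.5, and the control library from skin titled control with SmoM2YFP as its only named allele. The mice came from a cross of Axin2CreER, a tamoxifen-dependent recombinase driven by the Wnt-responsive Axin2 locus, with a Rosa allele that yields SmoM2YFP once a stop cassette is removed. SmoM2 is a constitutively active Smoothened, fused here to a yellow fluorescent protein, and it switches the Hedgehog pathway on. When tamoxifen was given is not stated in the sources used here. The genotype fields contradict the titles, since the control-titled library carries the mutant entry and the mutant-titled library the wild-type entry. Groups follow the titles. In dermal cells, defined below, the reporter eYFP stood at 26.3 CPM in the mutant-titled and 0.446 CPM in the control-titled library. The Hedgehog target Ptch1 stood at 196 and 5.54 CPM there, so both were higher in the library titled mutant. The source of the conflict was not tested. Flank skin of 2 to 3 littermates was pooled per library, so each group is 1 library and no difference below has a replicate check.

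Basal keratinocytes are the attached, dividing layer of the epidermis, held to the basement membrane by hemidesmosomes and maintained by the transcription factor p63. Before hair follicles form, Wnt and Eda signals pattern this layer into placodes, where genes such as Lef1, Wnt10b, Edar and Dkk4 are expressed, and the skin between them. Placodes then signal to the dermis beneath, among others through Shh and Pdgfa.

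The label held up for Trp63 and Epcam, basal markers that did not choose the cells, while periderm keratins were mixed. Trp63, which encodes p63, stood at 161 CPM in mutant basal cells, against 11.6 CPM in the other kept mutant barcodes. For control cells these levels were 146 and 5.17 CPM. Epcam, an epithelial adhesion gene, stood at 327 CPM in mutant basal cells against 27.3 CPM in the other mutant barcodes, and for control cells at 390 against 14.5 CPM. Krt8, a keratin of periderm and Merkel cells, had 0 UMIs in mutant and 1 UMI in control basal cells, and Atoh1, which marks Merkel cells, had 0 in both. At 3 counts, 0 UMIs allow up to 0.343 CPM in mutant and 0.818 CPM in control basal cells. Krt18 and Krt19, also periderm keratins, stood at 5.95 and 7.44 CPM in mutant basal cells, against 3.40 and 2.45 CPM in the other mutant barcodes. In control basal cells both stood at 2.73 CPM, against 1.62 and 0.331 CPM. A list of periderm markers summed to 344 CPM in mutant basal cells against 62.7 CPM in the other mutant barcodes. For control cells these sums were 296 and 21.9 CPM.

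Mutant basal cells held 8741667 UMIs and control basal cells 3668127, with medians of 8401 and 10724 UMIs per cell, so 1 UMI is worth 0.114 and 0.273 CPM. Both libraries listed 48 barcodes in common, and none of these was a basal cell in both. Hemoglobin genes summed to 842 CPM in mutant and 138 CPM in control basal cells, and to 998 and 151 CPM in the dermal cells used for comparison. Of 20 dermal marker genes, 8 passed the filter used below, 0 higher and 2 lower. They summed to 587 CPM in mutant and 706 CPM in control basal cells, with a median of 4 and 7 UMIs per cell. Marker sums were 344 and 296 CPM for periderm, 39.7 and 30.5 CPM for endothelium, 16.2 and 6.27 CPM for leukocytes, 16.2 and 12.8 CPM for melanocytes and Schwann cells, 9.84 and 23.5 CPM for muscle, and 2.06 and 3.54 CPM for Merkel cells. The part of such RNA in the results was not tested. The embryos behind each library are pooled, so the spread between animals cannot be seen. All intervals given below are 95% and cover counting error only. A fold is followed by its exact conditional binomial interval in parentheses.

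The keratin threshold fell inside a continuous range. In the mutant library 313 cells had 20 to 24 keratin UMIs, and 377 barcodes with 10 to 19 met every other condition and were left out. In the control library these were 100 and 132. Few barcodes lay near the suprabasal threshold, where 8 mutant and 3 control cells had 4 UMIs of Krt1 and Krt10, and 9 and 3 barcodes had 5 to 9. The Dkk4 condition removed 0 mutant and 56 control cells. The 56 made up 15% of gated control cells (11.5 to 19, exact Clopper-Pearson), and 0 of 976 allows up to 0.307% of mutant cells with a UMI, which limits detection and not expression. Dkk4 had 1 UMI over all kept mutant barcodes and 513 over the control ones.

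The sequences that follow are 250 bases before a RefSeq transcription start (build GRCm38.p6), shown for genes of 2 lists described below whose medians lay far from that of all genes, the Wnt targets and the hypoxia and glycolysis genes. None of them overlaps an exon of the GENCODE annotation. Lef1 has 4 such windows and Ldha 2, and the one with the most matches to the marked letters is shown. Capitals in the first mark CTTTGA or CTTTGT, letters of the TCF/LEF motif, on either strand. It lies within the Lef1 gene, before an internal start, at chr3:131156044-131156293 on the plus strand. Capitals in the others mark ACGTG, the core of the hypoxia response element, on either strand, so that CACGTG holds 2 overlapping matches. They are at chr7:46845554-46845803 (plus strand) before an internal start of Ldha, chrX:106186850-106187099 (plus strand) for Pgk1 and chr6:82774455-82774704 (minus strand) for Hk2.
Lef1: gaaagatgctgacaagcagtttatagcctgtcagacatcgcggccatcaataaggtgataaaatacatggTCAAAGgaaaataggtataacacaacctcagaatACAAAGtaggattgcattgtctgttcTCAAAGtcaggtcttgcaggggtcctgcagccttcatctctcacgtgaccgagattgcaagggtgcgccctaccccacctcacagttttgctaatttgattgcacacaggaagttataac
Ldha: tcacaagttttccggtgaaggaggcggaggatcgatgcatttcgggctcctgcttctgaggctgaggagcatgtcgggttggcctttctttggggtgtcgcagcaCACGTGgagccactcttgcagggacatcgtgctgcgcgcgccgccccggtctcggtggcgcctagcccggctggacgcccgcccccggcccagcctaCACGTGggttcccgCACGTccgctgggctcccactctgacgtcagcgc
Pgk1: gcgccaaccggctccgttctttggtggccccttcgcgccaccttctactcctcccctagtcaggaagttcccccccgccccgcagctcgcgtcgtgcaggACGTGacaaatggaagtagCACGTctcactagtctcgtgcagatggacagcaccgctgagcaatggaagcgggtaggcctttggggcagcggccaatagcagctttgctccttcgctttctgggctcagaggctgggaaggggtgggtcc
Hk2: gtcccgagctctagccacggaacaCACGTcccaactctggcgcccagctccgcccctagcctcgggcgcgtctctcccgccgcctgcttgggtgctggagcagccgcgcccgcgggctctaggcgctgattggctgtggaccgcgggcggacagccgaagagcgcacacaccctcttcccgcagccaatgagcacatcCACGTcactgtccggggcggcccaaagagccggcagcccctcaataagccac

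By median and by number of genes, though not by summed level, placode genes were lower in mutant basal cells. Every cell with a Dkk4 UMI had been removed from both libraries. Of 32 listed genes other than Dkk4, 20 passed the filter of a mean of 10 CPM, and 10 of them were lower and 4 higher by at least 1.5-fold with 1 CPM added. Over all 7009 genes compared, 2.14% were lower and 3.17% higher, 5.31% in all. The median log2 ratio, mutant over control, was -0.56 for the list and 0.05 for all genes. The 32 genes summed to 2160 CPM in mutant and 2032 CPM in control cells. In dermal cells the median of the 11 list members that passed there was 0.23. With 12 members under the filter, the count covers the more abundant ones. In cells with fewer than 5 collagen UMIs the list had 3 higher and 9 lower of 18. The genes on which these results turn lie, in GRCm38, at chr3:131110471-131224356 (Lef1), chr15:98770712-98778150 (Wnt10b), chr2:133552159-133562885 (Bmp2), chr11:100256217-100261029 (Krt17) and chr12:36314139-36318452 (Sostdc1), and all 5 are protein-coding.

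Lef1, the Wnt effector and placode gene, had 430 UMIs in mutant and 738 in control basal cells, or 49.2 and 201 CPM, 4.09-fold lower in the mutant (3.63 to 4.62). Wnt10b, a ligand that marks placodes early, stood at 14.1 CPM in mutant and 49.1 CPM in control cells, 3.49-fold lower (2.76 to 4.42). Bmp2, a ligand produced in placodes, stood at 2.52 CPM in mutant and 18.5 CPM in control cells, 7.37-fold lower (4.50 to 12.5). These 3 genes were therefore all well under the control level, while Wnt10a, the paralog of Wnt10b, stood at 41.6 and 47.4 CPM and within 1.5-fold. The lymphotoxin gene Ltb, a target of Eda signalling, stood at 4.81 CPM in mutant and 19.1 CPM in control cells. Krt17, a keratin of placodes and follicles, stood at 15.3 CPM in mutant and 45.0 CPM in control cells, 2.93-fold lower (2.32 to 3.71). Tnfrsf19 (Troy), Fst, which encodes the activin and BMP antagonist follistatin, and Bmp7 were lower too, by 2.38, 1.998 and 1.66-fold. Edar, the receptor of ectodysplasin, had 17 UMIs in mutant and 18 in control cells and was under the filter. These came from totals of 8741667 and 3668127 UMIs, so the near-equal counts do not stand for equal levels. Fgf20, a placode signal to the dermis, had 0 UMIs in mutant and 11 in control cells. Its control level was 8.74 times the mutant limit of 3 counts. This fold leaves out the counting error of the control UMIs and is not a lower bound.

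The other 4 called members were higher. Sostdc1, which encodes a secreted inhibitor of Wnt and BMP signalling, stood at 386 CPM in mutant and 151 CPM in control basal cells, 2.55-fold higher (2.33 to 2.80). Pdgfa, the ligand for dermal PDGF receptors, stood at 1090 CPM in mutant and 686 CPM in control cells, 1.59-fold higher (1.52 to 1.66). Trps1, a transcriptional repressor gene, and Ptch1, the Hedgehog receptor and target, were 2.27-fold and 2.5-fold higher. The call of Ptch1 ended in cells with fewer than 5 collagen UMIs, where its log2 ratio was 0.48, and 61 of its 143 mutant UMIs were in 38 cells with more. These 4 ran opposite to the 10 lower members. Sostdc1, though on the placode list, was lower in the control Dkk4-positive cells (43.0 CPM) than in the Dkk4-negative ones (151 CPM). Its higher level in mutant cells is therefore not read as a gain of placode expression.

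**Figure D1:**
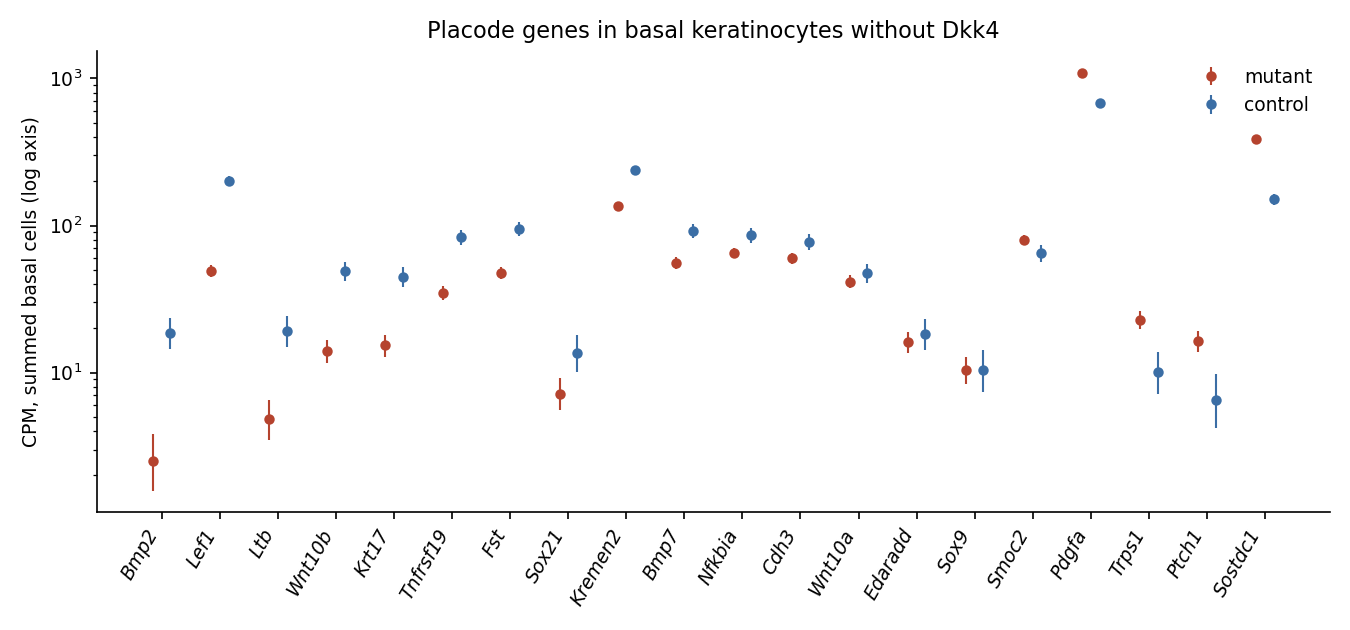
CPM (log axis) of the 20 placode list genes past the filter in summed basal cells, mutant at left and control at right of each pair, with exact Poisson 95% intervals that cover counting error. Genes run by their log2 ratio, with Bmp2 and Lef1 lowest and Ptch1 and Sostdc1 highest in the mutant library.

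The same differences appeared in the number of cells. Every cell was thinned to 3000 UMIs, which all 976 and 317 basal cells reached, as did 2652 of 2778 mutant and 7199 of 7298 control dermal cells. Lef1 then had a UMI in 10.8% of mutant basal cells (8.88 to 12.9) and 37.2% of control basal cells (31.9 to 42.8), and in 4.98% of mutant and 5.82% of control dermal cells. For Wnt10b the shares were 3.89% of mutant and 12% of control basal cells, with 0 of 2652 mutant and 1 of 7199 control dermal cells. For Krt17 they were 4.41% and 15.1%, against 0.0754% and 0.0139% of dermal cells. Sostdc1 had a UMI in 56.9% of mutant (53.7 to 60) and 32.5% of control basal cells (27.4 to 38), against 13.6% and 12.2% of dermal cells. Pdgfa had one in 91.7% and 79.2% of basal cells, against 8.11% and 5.11% of dermal cells. Unthinned, Lef1 was in 30.2% and 77.9% of cells and Sostdc1 in 83.7% and 63.4%. A thinned mutant cell held a mean of 3.26 genes of the placode list (SD over cells 1.39) and a control cell 3.90 (SD 1.64).

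**Figure D2:**
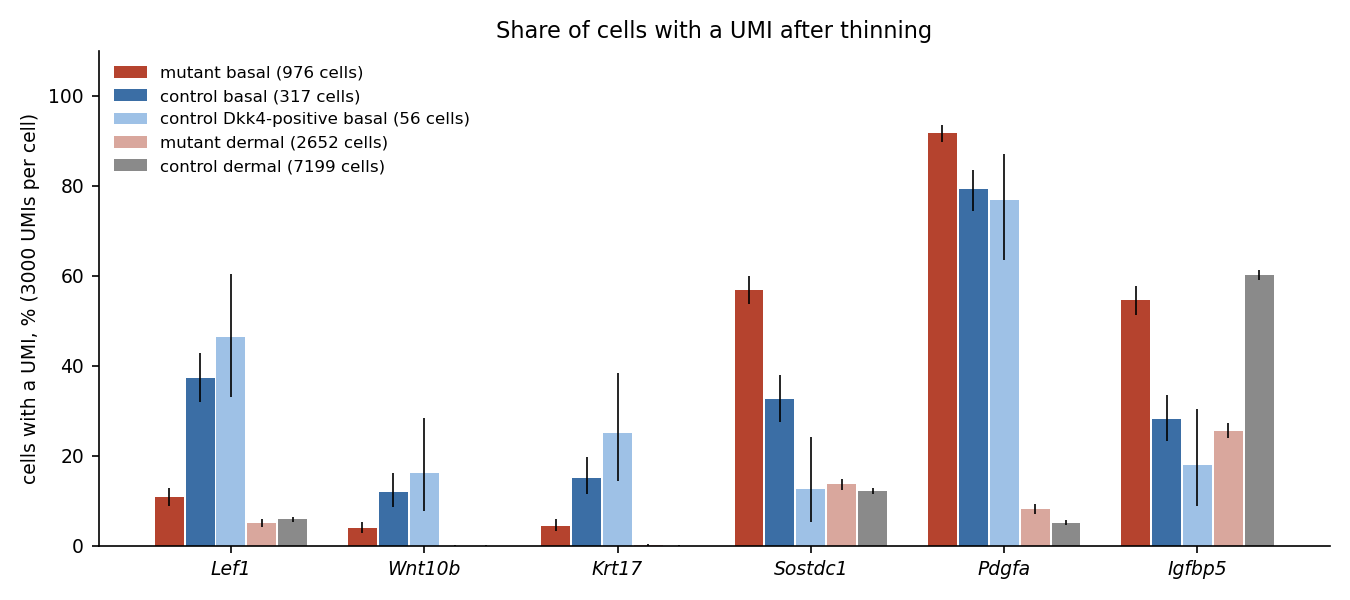
Percentage of cells with at least 1 UMI of 6 genes after each cell was thinned to 3000 UMIs, with Clopper-Pearson 95% intervals, in mutant and control basal cells without Dkk4, control Dkk4-positive basal cells, and dermal cells of both libraries. Lef1, Wnt10b and Krt17 are in fewer mutant than control basal cells, and Sostdc1, Pdgfa and Igfbp5 in more.

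Control Dkk4-positive basal cells, which the rule left out, stood further from the mutant cells in several placode genes than Dkk4-negative control cells did. Bmp2 stood at 2.52 CPM in mutant basal, 18.5 CPM in control basal and 73.6 CPM in control Dkk4-positive cells. Krt17 stood at 15.3, 45.0 and 74.95 CPM over the same 3 classes, Wnt10b at 14.1, 49.1 and 76.3 CPM and Sostdc1 at 386, 151 and 43.0 CPM. Fst had no such order, at 47.5, 94.9 and 66.6 CPM, and Lef1 stood at 49.2, 201 and 226 CPM. Within the control library, 6.08% of 6922 genes were higher and 6.10% lower (12.2% in all) in Dkk4-negative than in Dkk4-positive cells. Of 20 placode genes compared there, 1 was higher and 8 were lower. Dkk4 chose these cells, so nothing is read from this count. By the naming rule the highest were Sostdc1, Msl1, Wwc2, Gas1, Rfk, Dtl, Id1 and Lima1, and the lowest Dct, Pmel, Ptgds, Selenop, Pf4, Pthlh, Ltb and Bmp2. The pigment genes Dct and Pmel came from 1 of the 56 cells, as did Ptgds and Pf4, whereas Bmp2 was in 33 cells and Pthlh in 15. Mutant basal cells differed from the 18 mutant suprabasal cells that were left out by Krtdap, a differentiation gene, at 14.3 and 1478 CPM, and by the chemokine gene Cxcl14 at 2918 and 326 CPM. In that comparison 18.3% of genes were higher and 20.6% lower, 39.0% in all, and the gate chose both sides.

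Wnt pathway genes were lower at the level of targets and of receptors. Of 24 listed targets and feedback genes 11 were compared, 6 were lower and 1 higher, with a median log2 ratio of -0.66. Lef1 and Tnfrsf19 are shared with the placode list. Znrf3, a ubiquitin ligase that removes Wnt receptors, stood at 8.58 CPM in mutant and 20.7 CPM in control cells, 2.42-fold lower (1.73 to 3.37), and its paralog Rnf43 at 9.95 and 16.6 CPM, 1.67-fold lower (1.18 to 2.35). Myc and Apcdd1 were 1.75-fold and 1.65-fold lower. Axin2, a direct target and the locus of the recombinase, stood at 21.1 CPM in mutant and 25.1 CPM in control cells, a 1.19-fold difference whose interval (0.917 to 1.54) includes no difference. Ccnd1, the cyclin D1 gene, was 1.76-fold higher (1.52 to 2.04). The feedback genes were thus not uniform, with Znrf3, Rnf43 and Apcdd1 lower and Axin2 near the control level.

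Among 9 Wnt receptor genes compared of 21 listed, 4 were lower and 0 higher. Fzd10 stood at 55.7 CPM in mutant and 120 CPM in control cells, 2.16-fold lower (1.89 to 2.46). Kremen2, a receptor for Dkk proteins, was 1.77-fold lower, and Lgr4 and Fzd6 were 1.62-fold and 1.59-fold lower. The ligand genes showed no common direction. Of 9 compared, Wnt10b was lower, Wnt7b was 1.77-fold higher (1.51 to 2.07) and 7 were within 1.5-fold, among them Wnt4 at 395 CPM in mutant and 265 CPM in control cells. Ctnnb1, which encodes beta-catenin of both junctions and Wnt signalling, stood at 258 CPM in mutant and 531 CPM in control cells, 2.06-fold lower (1.94 to 2.19). In dermal cells it stood at 206 and 226 CPM. TCF/LEF letters were in the upstream window of 2 of the 3 lower targets that have one (Lef1 and Tnfrsf19), of 2 of 3 targets within 1.5-fold, and of 30.8% of 27025 genes. Among receptors with a window they were in 0 of 3 lower genes and 0 of 1 within 1.5-fold. For placode genes with a window these were 3 of 6 lower, 0 of 2 higher and 1 of 2 within 1.5-fold.

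BMP and TGF-beta genes went both ways, with 3 higher and 4 lower of 15 compared and a median of 0.05. Id2, a BMP target, stood at 51.9 CPM in mutant and 25.6 CPM in control cells, 2.03-fold higher (1.62 to 2.56), while Id1 and Id3 were within 1.5-fold. Among FGF response genes 2 were higher and 1 lower of 6 compared: Etv5 was 2.21-fold higher (1.56 to 3.21), Spred1 1.70-fold higher and Dusp6 1.57-fold lower. Of 10 Notch pathway genes compared none passed 1.5-fold.

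Genes of hypoxia and glycolysis were higher in mutant basal cells, with 9 higher and 0 lower of 16 compared and a median log2 ratio of 0.60. All 16 had a ratio above 0 on the log2 scale, down to Gapdh at 0.22. Bnip3, a mitophagy receptor gene, stood at 27.0 CPM in mutant and 4.64 CPM in control cells, 5.83-fold higher (3.56 to 10.2), from 236 and 17 UMIs. The glucose transporter gene Slc2a1 stood at 163 CPM in mutant and 86.4 CPM in control cells, 1.88-fold higher (1.67 to 2.13). Ldha, which encodes lactate dehydrogenase, stood at 770 and 444 CPM, 1.73-fold higher (1.64 to 1.83). Aldoa, Tpi1, Eno1, Pgk1, Hk2 and Vegfa were higher by 1.52 to 2.001-fold.

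In dermal cells 1 of 15 members of the list was higher and 1 lower, against 3.38% higher and 2.95% lower (6.33% in all) of 7935 dermal genes, with a median of 0.33. Bnip3 (chr7:138890836-138909519, GRCm38) stood at 18.9 CPM in mutant and 21.6 CPM in control dermal cells. Glycolysis genes have processed pseudogenes, and how shared reads were counted is not given in the sources used here. Letters of the hypoxia element were in the window of 7 of the 9 higher genes, of 4 of 6 members within 1.5-fold that have a window, and of 18.5% of 27025 genes. The stress list had a median of 0.28 with 1 of 10 higher in basal cells, and 0.32 in dermal cells, and its part in these values was not tested.

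**Figure D3:**
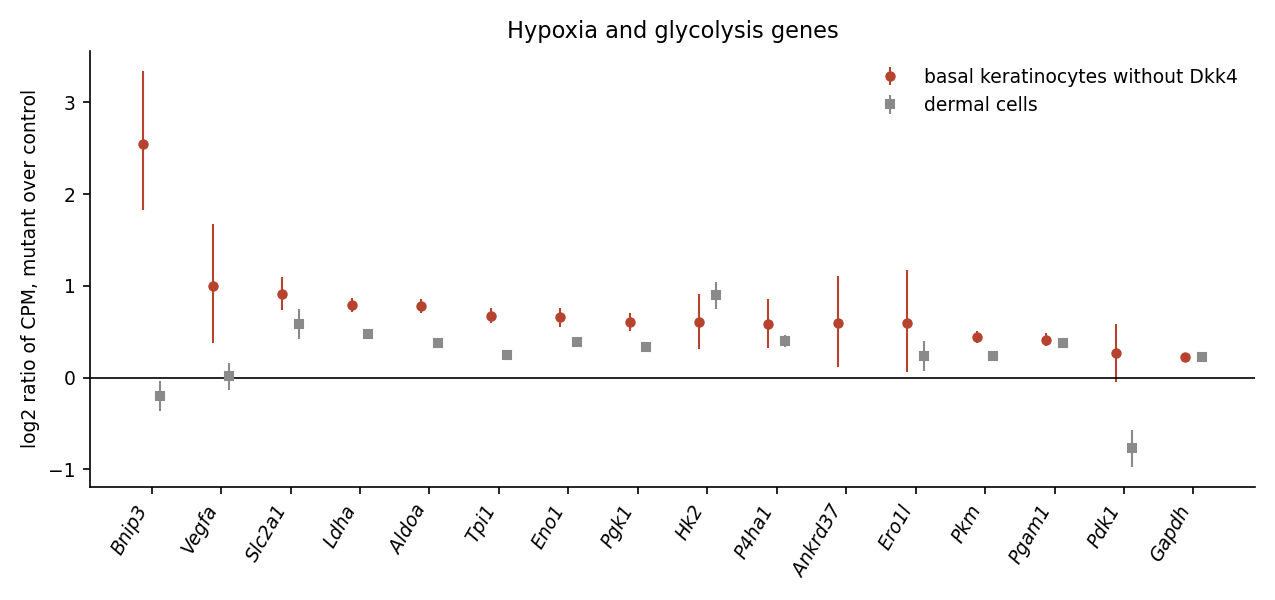
Log2 ratio of CPM, mutant over control, of 16 hypoxia and glycolysis genes in basal keratinocytes (circles) and dermal cells (squares), with exact 95% counting intervals. All basal ratios are above 0, Bnip3 stands highest in basal cells and slightly below 0 in dermal cells, and Ankrd37 is under the filter in dermal cells.

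Growth factor genes of the IGF and PDGF families were also mostly higher, with 5 higher and 1 lower of 9 compared and a median of 0.67. In dermal cells the median of these 9 genes was 0.48, with 2 higher and 2 lower. Igfbp5, an IGF binding protein gene, stood at 316 CPM in mutant and 111 CPM in control basal cells, 2.86-fold higher (2.57 to 3.18). Igf2r, Igf2 and Pdgfc were 1.90, 1.71 and 1.62-fold higher. Igfbp2 stood at 195 CPM in mutant and 349 CPM in control cells, 1.79-fold lower (1.66 to 1.92). The 2 binding protein genes therefore differed in direction.

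Genes of attachment to the basement membrane included 5 that were higher and 1 lower of 31 compared, with a median of 0.22. Col17a1, the hemidesmosome collagen, stood at 35.4 CPM in mutant and 15.3 CPM in control cells, 2.32-fold higher (1.74 to 3.14). Col7a1, the anchoring fibril collagen, stood at 15.3 and 5.18 CPM, 2.96-fold higher (1.82 to 5.07). Itga3, an integrin subunit gene, was 1.56-fold higher (1.15 to 2.15). Egfl6 stood at 17.9 and 2.999 CPM, but in cells with fewer than 5 collagen UMIs its log2 ratio was 0.47 against 2.24 in all cells, and the count for the list was 2 higher and 1 lower of 30, as it was without the called doublets. Col18a1 was 1.94-fold lower (1.73 to 2.18). The integrin genes Itga6 and Itgb4 of the hemidesmosome were within 1.5-fold.

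Junction genes had 2 higher and 5 lower of 24 compared. The gap junction genes Gjb6 and Gja1 were 1.89-fold and 1.56-fold lower, and Pkp1, a desmosome plaque gene, was 1.78-fold higher (1.26 to 2.55). Of 20 transcription factor genes of the epidermis compared, Barx2, a homeobox gene, stood at 148 CPM in mutant and 70.1 CPM in control cells, 2.11-fold higher (1.84 to 2.42), Klf5 was 1.52-fold higher, and 18 were within 1.5-fold, Trp63 included. Hox genes, which mark position along the body axis, had 1 higher and 5 lower of 15 compared with a median of -0.39, led by Hoxc5 at 14.99 CPM in mutant and 41.4 CPM in control cells. In dermal cells the Hox median was -0.58, with 0 higher and 3 lower of 6.

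**Figure D4:**
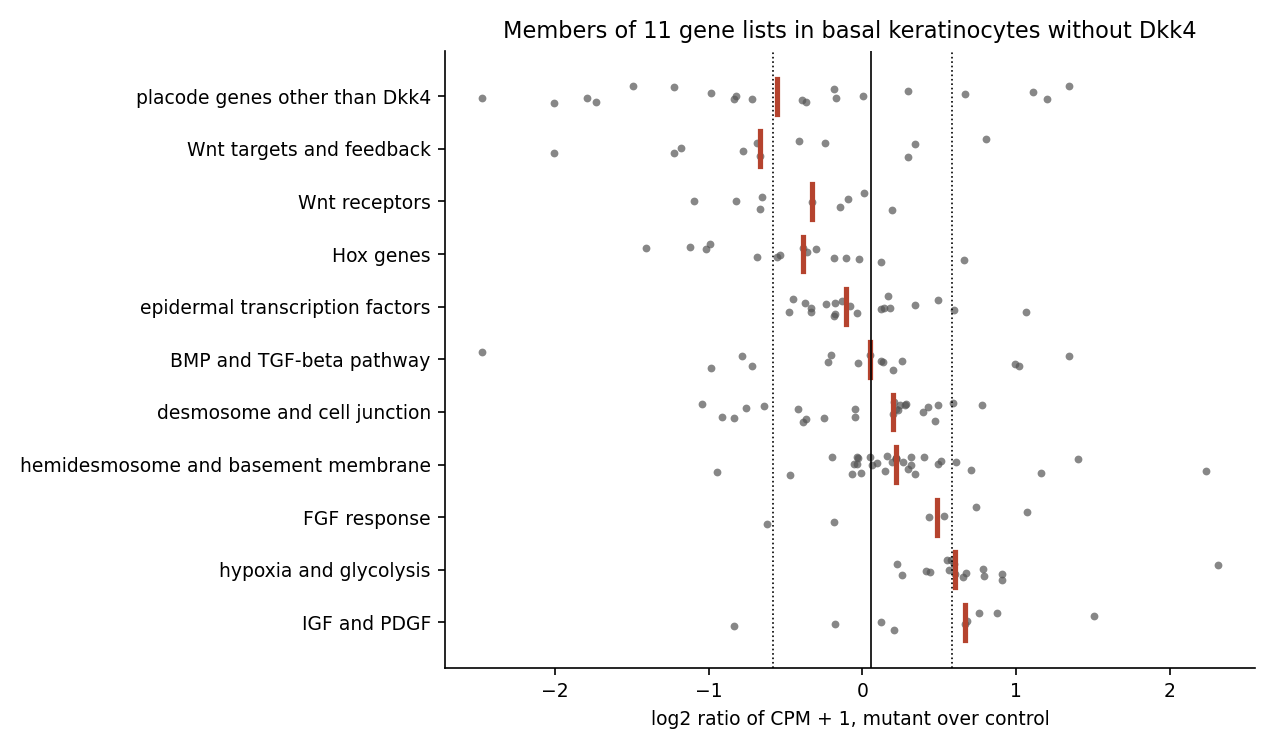
Log2 ratio of CPM plus 1, mutant over control, of the compared members of 11 gene lists (points) with the list median (thick bar), the median of all genes (solid line) and 1.5-fold (dotted lines). Placode and Wnt target medians lie at -0.56 and -0.66, and those of hypoxia and glycolysis and of IGF and PDGF at 0.60 and 0.67.

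Of 41 S phase and 50 G2M list genes compared 0 were higher and 0 lower, with medians of 0.21 and 0.03. A thinned cell held a median of 10 S phase UMIs if mutant and 8 if control, and 20 and 21 G2M UMIs. In dermal cells these medians were 8 and 6 S phase UMIs, and 11 and 7 G2M UMIs. Of 7 genes of the Eda and NF-kB pathway compared, 0 were higher and 1 was lower, and of 4 EGF family genes none passed 1.5-fold. Guidance, adhesion and chemokine genes had 3 higher and 1 lower of 18, among them Robo2, a guidance receptor gene, at 29.5 CPM in mutant and 8.45 CPM in control cells. Retinoid genes had 0 higher and 2 lower of 7, and cell cycle inhibitors and p53 targets 1 higher and 1 lower of 13.

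Among genes with a mean of at least 20 CPM, ranked by log2 ratio with 5 CPM added, the 12 highest in mutant basal cells were AA465934, Mest, Kcne1l, Anxa1, Cwc22, Ntm, Cdh4, Igfbp5, Sostdc1, Crybg3, Lgals7 and Slc7a1. AA465934, annotated as a processed transcript, stood at 73.0 CPM in mutant and 1.91 CPM in control basal cells, and at 72.8 and 1.52 CPM in dermal cells. The splicing factor gene Cwc22 was 4.39-fold higher (3.51 to 5.56) in basal and 4.49-fold higher in dermal cells, so the differences in AA465934 and Cwc22 were of like size in both cell types. Mest, an imprinted gene, stood at 155 CPM in mutant and 30.8 CPM in control basal cells, 5.03-fold higher (4.15 to 6.15), and 1.36-fold higher in dermal cells. Mest had a UMI in 32.4% of thinned mutant and 6.62% of control basal cells, against 88.4% and 81.9% of dermal cells. In basal cells with 0 collagen UMIs Mest stood at 137 and 26.2 CPM. Anxa1, an annexin gene, was 4.77-fold higher (3.62 to 6.40), the adhesion gene Ntm 3.99-fold (2.99 to 5.44) and the R-cadherin gene Cdh4 4.12-fold (2.84 to 6.16), with Cdh4 3.86-fold higher in dermal cells. Kcne1l, a potassium channel subunit gene, was 7.17-fold higher (4.71 to 11.4). Lgals7, the galectin gene of stratified epithelia, stood at 99.6 CPM in mutant and 40.9 CPM in control cells.

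By the same ranking the 12 lowest were Rtn1, Ripply3, Vsnl1, Lef1, Rasl11b, H2-K1, Ifitm1, Parm1, Gadd45g, Wnt10b, Ifitm3 and Krt17. Rtn1, a reticulon gene, stood at 3.20 CPM in mutant and 37.1 CPM in control cells, 11.6-fold lower (7.66 to 18.1). Ripply3, a transcriptional repressor gene, stood at 5.15 and 44.7 CPM, 8.69-fold lower (6.21 to 12.4). Ripply3 had a UMI in 1.23% of thinned mutant basal cells, 13.9% of control basal cells and 23.2% of the Dkk4-positive ones. Vsnl1, a neuronal calcium sensor gene, was 7.41-fold lower (5.27 to 10.6). H2-K1, a class I histocompatibility gene, was 4.33-fold lower (3.31 to 5.69) in basal and 2.17-fold lower in dermal cells. The interferon-induced genes Ifitm1 and Ifitm3 were 3.998-fold and 2.75-fold lower in basal cells, with dermal log2 ratios of -0.37 and 0.21. Ifitm genes and H2 genes resemble their family members, and how shared reads were counted is not given in the sources used here. Of 178 higher genes that were also compared in dermal cells, 20 (11.2%) were higher there and 11 (6.18%) lower, and of 94 lower genes 21 (22.3%) were lower and 6 (6.38%) higher. Over all dermal genes these shares were 3.38% higher and 2.95% lower.

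Hedgehog target genes, the readout of SmoM2, had few UMIs in basal cells other than those of Ptch1. The reporter eYFP had 8 UMIs in mutant and 1 in control basal cells, and 527 and 27 in dermal cells. Ptch1 stood at 16.4 CPM in mutant and 6.54 CPM in control basal cells, 2.5-fold higher (1.62 to 4.03), and at 196 and 5.54 CPM in dermal cells. Gli1 had 18 UMIs in mutant and 0 in control basal cells, and Hhip 23 and 0. Their mutant levels were 2.52 and 3.22 times the control limit of 3 counts. These folds leave out the counting error of the mutant UMIs and are not lower bounds. The ligand Shh had 0 UMIs in mutant and 1 in control cells.

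In mutant basal cells most UMIs of Ptch1, Gli1 and eYFP were in cells with collagen UMIs. In 660 mutant and 189 control basal cells with 0 collagen UMIs, Ptch1 stood at 8.63 CPM (6.38 to 11.4) in mutant and 7.14 CPM (3.998 to 11.8) in control cells. With fewer than 5 collagen UMIs its log2 ratio was 0.48, which is within 1.5-fold, against 1.20 in all cells. In the 38 mutant cells with 5 to 19 collagen UMIs it stood at 122 CPM, and these cells held 61 of the 143 Ptch1 UMIs, 10 of the 18 Gli1 UMIs and 5 of the 8 eYFP UMIs. Twist2, a dermal factor gene, stood at 142 CPM in them and at 1.41 CPM in mutant cells with 0 collagen UMIs. The 9 control cells of that range had 0 Ptch1 UMIs and Twist2 at 150 CPM. The dermal condensate gene Foxd1 had 36 UMIs in mutant and 0 in control basal cells, 32 of them in the 38 cells. In cells with 0 collagen UMIs Lef1 stood at 44.2 CPM in mutant and 206 CPM in control cells and Wnt10b at 14.4 and 45.2 CPM. Sostdc1 stood at 410 and 154 CPM, so these 3 genes of the placode list differed there too.

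**Figure D5:**
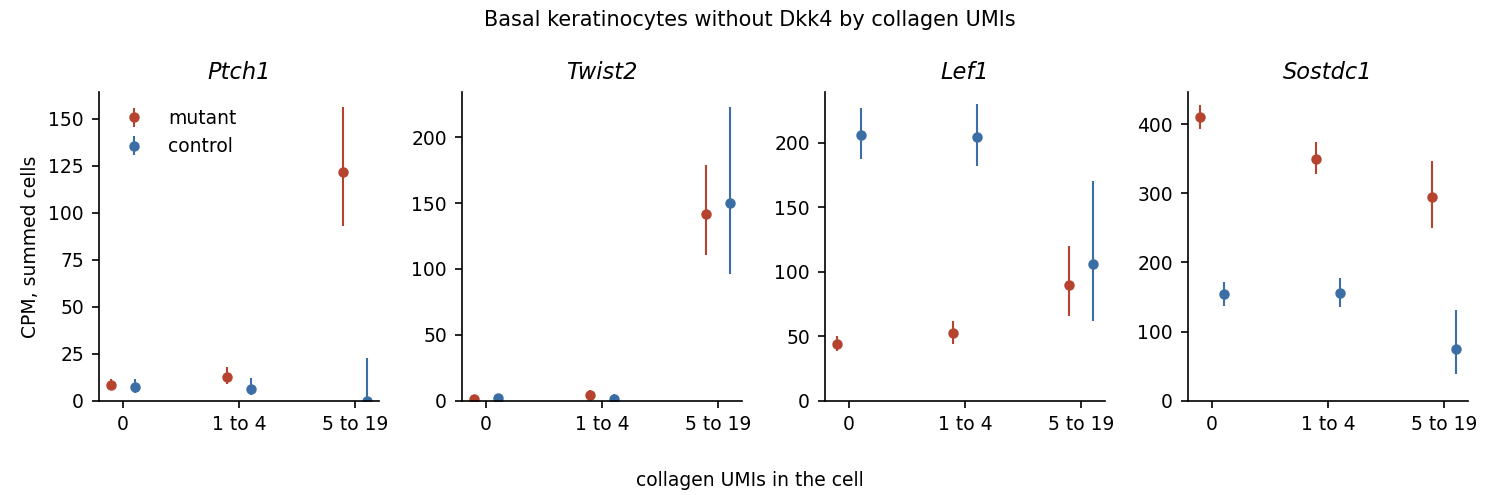
CPM of Ptch1, Twist2, Lef1 and Sostdc1 in basal cells summed by their collagen UMIs (Col1a1, Col1a2 and Col3a1), mutant at left and control at right of each pair, with exact Poisson 95% intervals. Ptch1 and Twist2 are high only in the 38 mutant cells with 5 to 19 collagen UMIs (Twist2 in the 9 control cells as well), whereas the gap in Lef1 is present at 0 and at 1 to 4.

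Among cells of 1 library, the genes that varied most in both, by variance over mean of thinned UMIs, were Malat1, Gm42418, Crabp1, Lgals1, Fabp5, Hist1h2ap, Xist, Hist1h1b, Cxcl14, Vim, Arl6ip1 and Ifitm3. Over 3125 genes the median of this measure was 1.02 in both libraries, near the value of 1 that counting alone would give. Fabp5, a fatty acid carrier gene of keratinocytes, had 2.88 in mutant and 2.96 in control cells with UMIs in 98.5% and 95.6% of cells. Crabp1, a retinoic acid binding protein gene, was in 6.35% and 12.6% of cells. Ifitm3 had UMIs in 57.1% of the mutant and 82.0% of the control cells, with at most 12 and 19 in a cell.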

How the data were processed

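The authors deposited 1 matrix of UMI counts per gene and barcode for each of 2 libraries, with 32286 features that include eYFP. Per the submitters' processing notes, Cell Ranger 5.0.1 and the mm10 genome were used. Per the labels' protocols, flank skin was digested with 0.25% trypsin (20 minutes, 37 °C), stained with DAPI and sorted, and both libraries were prepared in parallel and sequenced on 1 lane. Of the features, 32158 matched GENCODE M21 by identifier.

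The members, the 38 gene lists and the named genes were chosen with earlier results of these data known. Counts of the cells were summed per library and scaled to CPM. With 1 library per group no test was made and no p-value is given. A gene was compared if its mean over both libraries was at least 10 CPM and it was no gating, hemoglobin or mitochondrial gene, and it was called at 1.5-fold with 1 CPM added. Named by size were the 12 highest and 12 lowest by log2 ratio with 5 CPM added and a mean of 20 CPM, and 8 each way in the comparison with Dkk4-positive and suprabasal cells. That with suprabasal cells used the mutant library only, since the control library had 3 such cells. The 12 most varying genes were those with the highest smaller variance over mean of both libraries. Dermal cells had at least 20 collagen UMIs and fewer than 5 keratin UMIs. Intervals are exact (Poisson, conditional binomial, Clopper-Pearson).

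Doublets were kept. Scrublet in scanpy 1.11.5 with an expected rate of 8% called 39 mutant and 9 control basal cells, left out in an alternative. Python 3.11.15, numpy 2.4.6, scipy 1.17.1 and pandas 2.3.3 were used, and scripts were tested on simulated data. Some list members are not reported here by name.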

Additional observations from a re-analysis of the deposited data

Results flagged for a closer look

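Among the listed genes and those named by size, 7 were at least 1.5-fold one way in basal cells and 1.5-fold the other way in dermal cells of the same libraries. The difference between the cell types was not tested, and no explanation was weighed. The log2 ratio of Bmp2, mutant over control, was -2.47 in basal and 1.09 in dermal cells, where it stood at 34.6 CPM in mutant and 15.6 CPM in control cells. Fst had -0.98 in basal and 1.45 in dermal cells, and Gadd45g, a stress and cell cycle gene, -1.79 and 0.98. Igfbp5 had 1.51 in basal and -1.63 in dermal cells, at 161 CPM in mutant and 500 CPM in control dermal cells. Col18a1, a basement membrane collagen, had -0.95 and 1.08, Pkp4, a junction gene, -0.84 and 0.68, and Robo2, a guidance receptor gene, 1.69 and -0.73.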

How the results depend on the processing

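The counts of genes, the list medians and the log2 ratios of named genes were recomputed under 15 settings, of which 3 were chosen after seeing the data (a keratin threshold of 10 UMIs, Dkk4-positive cells kept in, and a threshold of 8 UMIs after thinning). The setting of fewer than 3 G2M UMIs left 1 cell per library and gave no value. Under the other 14, the 24 genes named by size kept their sign in all 336 values, 331 of them past 1.5-fold. Of these values, 55 fell outside the counting interval of the reported ratio. The genes were chosen as the most extreme in the same cells, and the filter settings cannot change a gene's ratio. Nothing is therefore read from the kept signs. The counts of 222 higher and 150 lower genes became 39 and 33 at a mean of 50 CPM, 1216 and 768 with no filter, 96 and 94 with 10 CPM added, 513 and 325 after thinning, and 1240 and 1305 at a keratin threshold of 50 UMIs (36 mutant and 13 control cells). TMM scaling, which shifts all genes by 0.05, gave 184 and 183. With 0 UMIs of Krt1 and Krt10, 440 genes were higher and the placode median was -0.27, and after thinning it was -0.29. The hypoxia median was 0.50 with 10 CPM added and 0.77 at the threshold of 50, where the Wnt target median was -0.069. At that threshold the sign turned for the IGF and PDGF median (-0.12), Fst (0.35), Rnf43 (0.996), Ptch1 (-0.15), Col7a1 (-0.53), Egfl6 (-0.89), Hoxc5 (0.23), Lgr4 (0.76), Fzd6 (0.55), Pkp1 (-0.30), Igf2 (-0.73) and Robo2 (-0.18), and the cause was not tested. Of 31 list medians there, 11 had the opposite sign, among them S phase (-0.45), desmosome and junction (-0.31) and Eda and NF-kB (-0.73), and over all settings 46 of 448 did. Calls were followed singly for 75 of the 372 called genes, those named by size and others picked by hand. Of these 75, 24 calls ended at that threshold, 13 with 10 CPM added and 8 after thinning. Without the called doublets 6 ended, below 5 collagen UMIs 5 and with TMM 4. Losses over all calls were larger. Of the 222 higher and 150 lower genes, 96 and 94 stayed called with 10 CPM added. After thinning 146 and 126 did, and at the keratin threshold of 50 UMIs 102 and 84. Pgk1, Hk2, Klf5, Itga3 and Dusp6, all near 1.5-fold, each lost the call under several settings. The comparisons with Dkk4-positive and suprabasal cells were not recomputed. Keeping the Dkk4-positive cells gave placode and Wnt target medians of -0.71 and -0.75. Depth limits the low genes, and those under a mean of 10 CPM, such as Edar, were not compared. No paired analysis was possible because each group is 1 library.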

Other observations

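Dcn, which encodes the matrix proteoglycan decorin, did not follow Lum, another dermal proteoglycan gene, within basal cells. In basal cells with 0 collagen UMIs it had 1302 UMIs in mutant and 637 in control cells, in 78.6% and 90.5% of cells. Lum had 29 and 17 UMIs in the same cells. The ratio of Dcn to Lum UMIs was 44.9 in mutant and 37.5 in control basal cells with 0 collagen UMIs, against 1.60 and 1.57 in dermal cells. In basal cells with 5 to 19 collagen UMIs it was 1.58 in mutant and 1.85 in control cells. The source of the Dcn UMIs in basal cells was not tested.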
